A study of Mus musculus with 12 samples.

Results

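The genes of cholesterol and fatty acid synthesis that the SREBP transcription factors are known to control were followed in RNA-Seq libraries of U2OS cells, a human osteosarcoma line. A list of 32 genes was looked up by full gene name, and all 32 were found among the 58735 genes of the table and all 32 passed the filter on low values, which kept 17538 genes. They fall into 4 roles: 7 genes take acetyl-CoA to farnesyl diphosphate, 12 make squalene and take it to cholesterol, 6 regulate SREBP or move sterols, and 7 make, desaturate or elongate fatty acids.

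SREBP proteins are made as membrane-bound precursors in the endoplasmic reticulum. When sterols are scarce, SCAP carries the precursor to the Golgi, where proteases release the part that enters the nucleus and switches on these genes. When sterols are plentiful, the INSIG proteins hold SCAP back. SREBF2 encodes the form best known for cholesterol genes and SREBF1 the forms best known for fatty acid genes. Growing tumor cells use both products to build membranes.

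The samples comprised 12 libraries in 4 groups of 3 replicates: blank U2OS cells, cells with the siRNA siSRSF1-2, cells with the siRNA siSRSF1-3, and cells with LINC01134 upregulated, called OE-LINC01134 here. SRSF1 is a splicing factor and LINC01134 a long non-coding RNA. The labels give no dose, time or vector, and the methods give 50 nM of siRNA and 48 h only for HOS, another osteosarcoma line. Blank cells were the only control, so siRNA and transfection, or LINC01134 and its vector, cannot be told apart. The labels do not say whether replicates were separate cultures, and the supplementary methods speak of 2 biological replicates per condition where 3 are labelled. All p-values therefore measure the spread between these libraries, which may be technical.

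Values are FPKM, fragments normalised for gene length and library size, so that levels can be compared between genes. The libraries held 26237763 to 32954539 reads on genes. SRSF1 was at 19.8 to 35.9 FPKM in blank cells, 7.09 to 7.46 with siSRSF1-2 and 3.33 to 7.90 with siSRSF1-3, and LINC01134 was at 0.497 to 0.791 FPKM in blank cells and 878 to 1279 in OE-LINC01134 cells (exact two-sided permutation p = 0.1 for each, the smallest that 3 against 3 allows). In the limma fit SRSF1 fell with siSRSF1-2 (log2 fold change -1.72, adjusted p = 0.00500) and missed the threshold with siSRSF1-3 (log2 fold change -2.09, adjusted p = 0.0518). Of 11 mesenchymal and osteoblast markers, 8 had a mean above 1 FPKM, while COL1A2, SP7 and TWIST1 were at or near 0. The 11 summed to 370 to 485 FPKM in blank, 188 to 422 in OE-LINC01134, 209 to 215 in siSRSF1-2 and 192 to 281 in siSRSF1-3 libraries. The 3 hepatocyte and 3 adipocyte markers reached at most 1.22 and 1.29 FPKM. Hemoglobin HBB was at 5.93 to 50.9 FPKM, with the 5 blood markers summing to 6.05 to 7.89 FPKM in blank, 6.89 to 7.40 in OE-LINC01134, 12.4 to 15.8 in siSRSF1-2 and 10.1 to 51.2 in siSRSF1-3 libraries, although PTPRC, CD3E, CD14 and LYZ stayed at or below 0.201. The 6 epithelial markers, mainly KRT18 and KRT8, summed to 107 to 186 FPKM in blank cells, 67.8 to 151 with OE-LINC01134, 65.2 to 68.6 with siSRSF1-2 and 75.6 to 227 with siSRSF1-3. The part of these marker differences in the results below was not tested. Replicates were uneven. Blank replicates 2 and 3, OE-LINC01134 replicates 1 and 3, and the 3 siSRSF1-2 libraries were close to one another, with a median chi-square of 0.911 to 1.29 per gene between recovered read counts against 0.455 from counting alone, whereas every other pair of replicates stood at 12.8 to 55.4.

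In blank cells 3 fatty acid genes were the most highly expressed of the 32. SCD, the desaturase that makes monounsaturated fatty acids, had the highest level at 97.2 ± 6.49 FPKM (SD, n = 3), followed by ACLY, which makes cytosolic acetyl-CoA from citrate, at 55.8 ± 11.8, and the fatty acid synthase gene FASN at 47.2 ± 18.8. SREBF2 was at 36.4 ± 0.962 FPKM and SREBF1 at 15.7 ± 4.86. At the other end were MVK at 3.67 ± 1.0, the sterol reductase gene TM7SF2 at 2.69 ± 0.762 and the lanosterol demethylase gene CYP51A1 at 2.46 ± 0.546 FPKM. By their SDs, ACLY and FASN did not differ beyond their spread, nor did the neighbors MVK and TM7SF2 or TM7SF2 and CYP51A1. In each of these pairs, though, the first gene was the higher in all 3 blank libraries.

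Blank replicate 1 stood apart for these genes: 30 of the 32 were higher in it than in the mean of blank replicates 2 and 3, with a median ratio of 1.33 and a range of 0.560 to 1.95. INSIG2 and STARD4 were the 2 exceptions. FASN, for instance, was at 68.8, 36.6 and 36.0 FPKM in blank replicates 1 to 3. Across all genes tested, 9304 of 17538 were higher in that library. The median distance of the 32 genes from the blank mean, on the log2(FPKM + 0.1) scale, was 0.27, -0.12 and -0.14 in blank replicates 1 to 3. It was -0.45, -0.39 and -0.40 in the siSRSF1-2 libraries, -0.80, -0.63 and -0.62 in the siSRSF1-3 libraries, and -0.68, -0.30 and -0.76 in the OE-LINC01134 libraries. OE-LINC01134 replicate 2 was the highest of its group for 28 of the 32 genes, and siSRSF1-3 replicate 1 was the lowest of its group for 18 genes and the highest for 10.

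**Figure D1:**
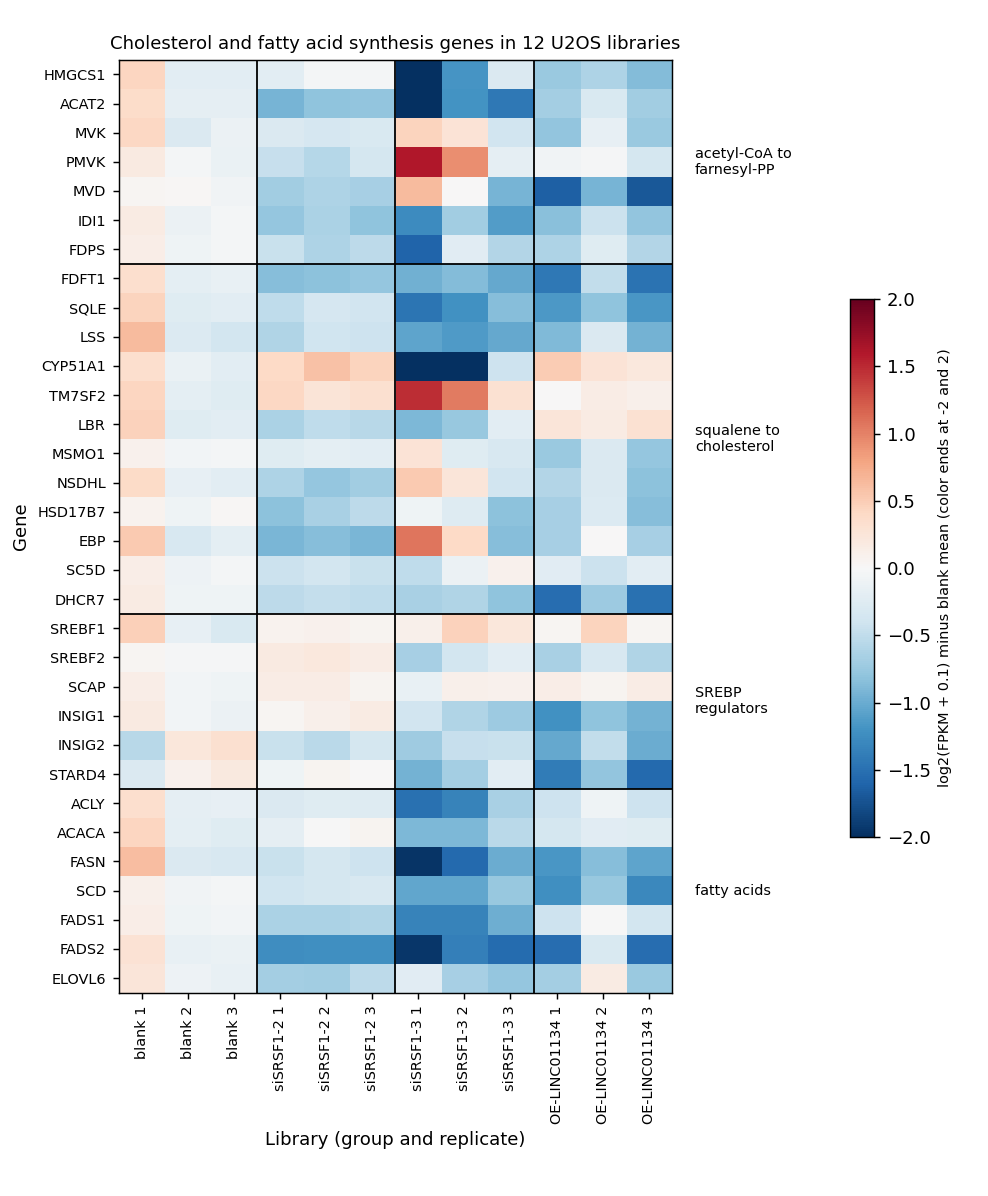
Level of each of the 32 genes (rows, ordered by role) in each of the 12 libraries (columns, by group and replicate), as log2(FPKM + 0.1) minus the mean of the 3 blank libraries; blue is lower and red is higher than the blank mean, and the colors end at -2 and 2. Most of the field to the right of the blank columns is blue, with red cells for PMVK, TM7SF2 and EBP in siSRSF1-3 replicates 1 and 2.

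To see how these genes stood after SRSF1 depletion with siSRSF1-3, its 3 libraries were compared with the 3 blank libraries. Fatty acid genes were at the front of the list: FADS2 and FADS1, the desaturases that make polyunsaturated fatty acids, fell, and every siSRSF1-3 library was below every blank library for all 7 fatty acid genes. No member rose. The fitted log2 fold change was below 0 for 25 of the 32 genes and above 0 for 7, with a median of -0.62 against -0.01 for all genes tested. A gene was called when the limma adjusted p was under 0.05 and the log2 fold change was beyond 1 in size. By this rule 2 of the 32 members were called lower, beside 0.929% of all genes tested, and 0 higher, beside 0.331%. With a threshold on the unadjusted p instead, 10 members passed in the lower direction, beside 7.24% of all genes, and 0 in the higher, beside 7.57%. In 18 members all siSRSF1-3 libraries lay below all blank libraries, as they did in 18.0% of all genes, and in 0 members above, as in 19.2% of all genes.

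FADS2 was at 25.8, 18.9 and 19.1 FPKM in blank replicates 1 to 3 and at 5.40, 8.12 and 7.18 FPKM in siSRSF1-3 replicates 1 to 3. The highest siSRSF1-3 library was below the lowest blank library, and FADS2 was 3.06-fold lower on the log2(FPKM + 0.1) scale (log2 fold change -1.61 ± 0.23 SE, adjusted p = 0.0444). FADS1 was at 18.7, 16.1 and 16.5 FPKM in blank and at 6.68, 6.69 and 8.62 FPKM in siSRSF1-3 libraries. Its groups did not overlap either, and it was 2.33-fold lower (log2 fold change -1.22 ± 0.18, adjusted p = 0.0453). The genes lie together on chromosome 11, FADS2 at 61792980 to 61867354 on the plus strand and FADS1 at 61799625 to 61829318 on the minus strand in the coordinates of the deposited table, whose human build is not given in the sources used here. Their spans overlap, and that of FADS2 also covers FEN1, a nuclease gene on the same strand with a mean of 51.01 FPKM over the 12 libraries. Whether reads were counted by strand is not given in the sources used here, so reads in the shared stretches cannot be assigned with certainty.

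SCD was at 105, 92.3 and 94.7 FPKM in blank and at 47.0, 47.3 and 57.3 FPKM in siSRSF1-3 libraries, with no overlap, but its log2 fold change of -0.95 ± 0.19 did not pass (adjusted p = 0.0575). For FASN the fit gave -1.504 ± 0.35 (adjusted p = 0.0743) and for ACLY -1.16 ± 0.28 (adjusted p = 0.0780). ACACA, the carboxylase that commits acetyl-CoA to fatty acids, and ELOVL6, an elongase of saturated fatty acids, were at -0.78 ± 0.24 and -0.56 ± 0.22. The 7 fatty acid genes together summed to 250 ± 44.9 FPKM in blank and 114 ± 21.3 FPKM in siSRSF1-3 cells (SD, n = 3).

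The cholesterol branch was mixed in the siSRSF1-3 libraries, and 0 of its 7 earlier and 12 later enzymes were called. CYP51A1 was at 3.08, 2.21 and 2.08 FPKM in blank cells and at 0.0427, 0.263 and 1.79 FPKM in siSRSF1-3 replicates 1 to 3, which rested on 3, 24 and 200 reads. The groups did not overlap, yet the siSRSF1-3 libraries were so far apart that the log2 fold change of -2.45 ± 0.87 did not pass (adjusted p = 0.132). ACAT2, which joins acetyl-CoA units in the first step, was at 17.1, 11.7 and 11.7 FPKM in blank and at 2.503, 5.71 and 4.86 FPKM in siSRSF1-3 libraries, again without overlap (log2 fold change -1.66 ± 0.34, adjusted p = 0.0580). HMGCS1, which makes HMG-CoA, was at 30.2, 19.3 and 19.3 FPKM in blank and at 4.21, 9.78 and 18.3 FPKM in siSRSF1-3 libraries (log2 fold change -1.29 ± 0.51, adjusted p = 0.157). Replicate 3 of siSRSF1-3 was close to the blank level for HMGCS1 and CYP51A1, and replicates 1 and 2 were far below it.

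PMVK, EBP and MVD had siSRSF1-3 libraries on both sides of the blank range. PMVK, the second kinase of the mevalonate steps, was at 21.05, 18.1 and 17.01 FPKM in blank and at 56.9, 35.5 and 16.4 FPKM in siSRSF1-3 replicates 1 to 3 (log2 fold change 0.78 ± 0.43, adjusted p = 0.254). EBP, the sterol isomerase, was at 27.6, 15.3 and 16.7 FPKM in blank and at 40.5, 25.4 and 10.6 FPKM in siSRSF1-3 libraries. MVD, the mevalonate decarboxylase, was at 21.6, 21.6 and 20.2 FPKM in blank and at 32.9, 21.3 and 11.1 FPKM in siSRSF1-3 libraries. The log2 fold change was 0.21 ± 0.50 for EBP (adjusted p = 0.789) and -0.09 ± 0.38 for MVD (adjusted p = 0.882). In all 3 genes siSRSF1-3 replicate 1 was the highest and replicate 3 the lowest of its group, and the groups overlapped. The sterol reductase genes TM7SF2 and LBR, which act at the same step, had log2 fold changes of 0.94 ± 0.34 and -0.62 ± 0.28, neither past the threshold. TM7SF2 overlaps VPS51, on the same strand at a mean of 10.7 FPKM.

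Among the regulators none was called with siSRSF1-3. SREBF2 was at 37.5, 35.8 and 35.8 FPKM in blank and at 23.0, 28.1 and 31.4 FPKM in siSRSF1-3 libraries, without overlap (log2 fold change -0.41 ± 0.19, adjusted p = 0.188). SREBF1 was at 21.3, 13.6 and 12.3 FPKM in blank and at 16.5, 21.1 and 17.95 FPKM in siSRSF1-3 libraries, all within the blank range. SCAP was at 19.04, 16.6 and 16.4 FPKM in blank and at 15.6, 18.6 and 18.5 FPKM in siSRSF1-3 libraries. So SREBF1 and SCAP, unlike SREBF2, had overlapping groups. INSIG1, itself a well-known SREBP target, was at 6.64, 5.62 and 5.43 FPKM in blank and at 4.4996, 3.84 and 3.51 FPKM in siSRSF1-3 libraries, without overlap (log2 fold change -0.57 ± 0.18, adjusted p = 0.116). INSIG2 was at 4.18, 7.21 and 7.71 FPKM in blank and at 3.73, 4.46 and 4.51 FPKM in siSRSF1-3 libraries. STARD4, a sterol carrier protein, was at 10.7, 13.9 and 15.1 FPKM in blank and at 6.73, 8.11 and 11.3 FPKM in siSRSF1-3 libraries. Blank replicate 1 was the low one for both, and it overlapped the siSRSF1-3 range.

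The fold changes held when each library was left out in turn, from -1.74 to -1.45 for FADS2 and from -1.34 to -1.16 for FADS1, but 0 members were called without any 1 blank library or without siSRSF1-3 replicate 1 or 2, fits in which at most 0.165% of all genes were called. Without siSRSF1-3 replicate 3, 23.9% of all genes were called and 11 members, of which ACAT2, ACLY, CYP51A1, FADS1, FADS2, FASN, HMGCS1, SCD and SQLE were lower and PMVK and TM7SF2 higher. The deposited FPKM imply a library size of 0.712 and 0.888 times the reads on genes in siSRSF1-3 replicates 1 and 2, against 0.990 to 1.09 in the other libraries; with FPKM scaled to each library's own total the median of all genes moved to -0.26 and that of the members to -0.88, with 0 called, and EBP, MVK, NSDHL and SCAP went from above to below 0. Relative to the median of all genes, the members' median was -0.61 under either scaling. The siSRSF1-3 libraries also differed from blank with gene length, with a median over all genes of 0.14 below 2000 bases, 0.17 from 2000 to 4000, -0.02 from 4000 to 6000 and -0.21 from 6000 on, and the members' medians in these bands were 0.45 (PMVK and NSDHL), -0.53, -0.95 and -0.67; the part of length in the result was not tested.

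**Figure D2:**
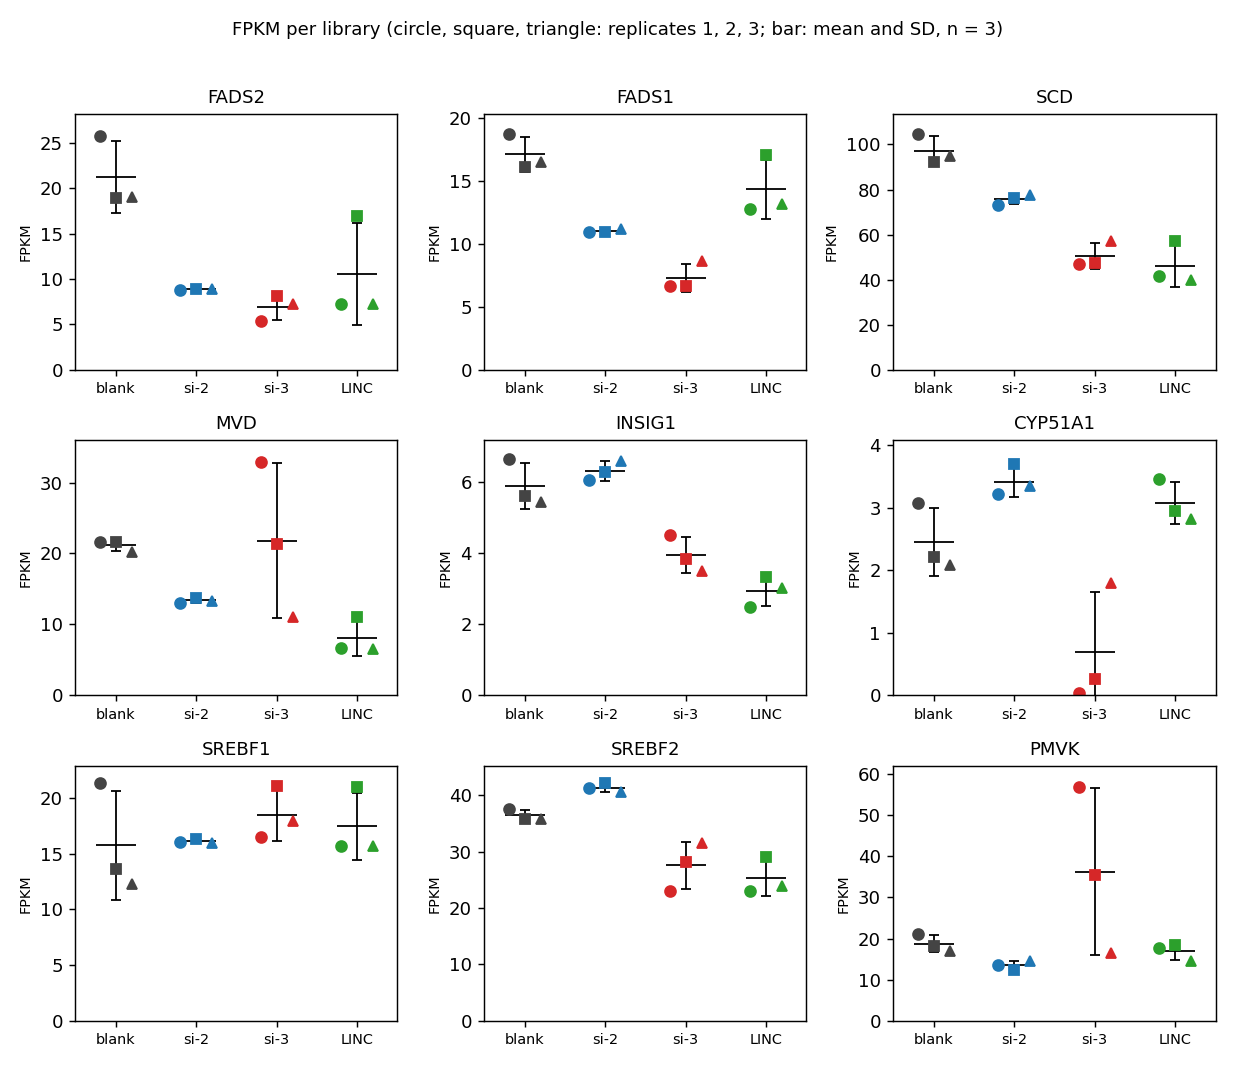
FPKM of 9 genes in each library (circle, square and triangle for replicates 1, 2 and 3; bars show the mean and SD, n = 3; si-2, si-3 and LINC stand for siSRSF1-2, siSRSF1-3 and OE-LINC01134; each axis starts at 0, which cuts the lower SD bar of CYP51A1). FADS2 and SCD show blank libraries above every other library, while MVD, PMVK and CYP51A1 show siSRSF1-3 libraries spread widely.

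The second siRNA, siSRSF1-2, was compared with the same 3 blank libraries, so the comparisons are not independent. FADS2 again fell past the fold threshold, and smaller decreases ran through the mevalonate steps and the later sterol steps. Of the regulators only SREBF2 passed the test, narrowly and in the higher direction. The log2 fold change was below 0 for 26 of 32 genes and above 0 for 6 (24 and 8 with libraries scaled to their own totals, where ACACA and STARD4 changed sign), with a median of -0.43 against 0.02 for all genes. One member, or 1 of 32, was called lower, beside 2.73% of all genes, and 0 were called higher, beside 2.22% of all genes. Without a minimum fold, 16 members fell at an adjusted p under 0.05, beside 12.8% of all genes, and 1 rose, beside 14.0% of all genes. With one fit over 4 groups, FADS1, FADS2 and IDI1 were the 3 that fell, beside 2.01% of all genes. Without siSRSF1-2 replicate 3, 6 members and 5.27% of all genes fell. Without blank replicate 1, 20 members and 24.7% of all genes fell, and the other omissions lay between. All siSRSF1-2 libraries were below all blank libraries in 21 members (24.2% of all genes) and above them in 2 (25.3% of all genes).

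FADS2 was at 8.83, 8.90 and 8.93 FPKM in siSRSF1-2 replicates 1 to 3, all below its lowest blank value of 18.9. It was 2.35-fold lower (log2 fold change -1.23 ± 0.13, adjusted p = 0.00270). FADS1 was at 10.96, 10.9 and 11.2 FPKM, below all blank libraries (log2 fold change -0.63 ± 0.08, adjusted p = 0.00371). SCD was at 73.3, 76.1 and 77.4 FPKM, also without overlap with blank (log2 fold change -0.36 ± 0.07, adjusted p = 0.0124). ELOVL6 fell as well, with a log2 fold change of -0.64 ± 0.13 (adjusted p = 0.0158). SCD and ELOVL6 no longer passed when any single siSRSF1-2 library was left out or with one fit over 4 groups. The other fatty acid genes ACLY, ACACA and FASN had log2 fold changes of -0.26, -0.04 and -0.41 and did not pass.

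Of the 7 genes up to farnesyl diphosphate, 5 fell at any fold with siSRSF1-2, namely ACAT2, PMVK, MVD, IDI1 and FDPS. ACAT2 and PMVK no longer passed when any single siSRSF1-2 library was left out. Of the 5 only IDI1 passed with one fit over 4 groups. ACAT2 was at 6.89, 7.54 and 7.62 FPKM, below its lowest blank value (log2 fold change -0.85 ± 0.16, adjusted p = 0.0135). MVD was at 13.1, 13.8 and 13.3 FPKM and had the smallest adjusted p of the 32 (log2 fold change -0.66 ± 0.06, adjusted p = 0.00199). PMVK was at 13.6, 12.5 and 14.5 FPKM, below all blank libraries (log2 fold change -0.46 ± 0.10, adjusted p = 0.0225). IDI1, an isomerase, and FDPS, which makes farnesyl diphosphate, had log2 fold changes of -0.74 and -0.53. HMGCS1, at 19.4, 21.8 and 21.7 FPKM, lay within the blank range.

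Of the 12 genes that make squalene and take it to cholesterol, 7 fell at any fold. They were FDFT1, which makes squalene, the demethylation genes MSMO1, NSDHL and HSD17B7, and EBP, SC5D and DHCR7 of the last steps. FDFT1, MSMO1, NSDHL, EBP and SC5D no longer passed when any single siSRSF1-2 library was left out, nor did DHCR7 without replicate 3. These 7 genes did not pass with one fit over 4 groups. EBP was at 10.1, 10.6 and 10.1 FPKM, below all blank libraries (log2 fold change -0.90 ± 0.22, adjusted p = 0.0305). DHCR7, the last reductase, was at 20.1, 20.8 and 20.2 FPKM against 32.4, 27.2 and 27.4 FPKM in blank (log2 fold change -0.50 ± 0.08, adjusted p = 0.00931). The remaining 5 did not pass: the squalene epoxidase gene SQLE, the lanosterol synthase gene LSS and LBR were at -0.41, -0.47 and -0.56 on the log2 scale, and TM7SF2 and CYP51A1 at 0.34 and 0.48. CYP51A1 was at 3.22, 3.69 and 3.35 FPKM, above all blank libraries (adjusted p = 0.0772). HSD17B7 has a pseudogene at a mean of 2.36 FPKM against 2.92 for the gene, and reads may be shared between them.

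Of the 6 regulators, 1 passed the test with siSRSF1-2. SREBF2 was at 41.3, 42.1 and 40.5 FPKM, above all blank libraries, and rose slightly (log2 fold change 0.18 ± 0.05, adjusted p = 0.0479). With eBayes without trend, one fit over 4 groups, the replicate block or voom, 0 of the 32 members rose at an adjusted p under 0.05. Leaving out single libraries also gave 0, except for blank replicate 1, without which 6 rose. In that fit 24.7% of all genes fell at an adjusted p under 0.05, and the share that rose was not counted. SREBF1 was at 16.1, 16.3 and 16.0 FPKM and SCAP at 19.2, 19.2 and 17.9 FPKM, with log2 fold changes of 0.08 ± 0.20 and 0.12 ± 0.08. INSIG1 was at 6.06, 6.28 and 6.60 FPKM and STARD4 at 12.3, 13.7 and 13.2 FPKM, both within the blank range. INSIG2 was at 4.49, 4.23 and 4.79 FPKM, inside the wide blank range of 4.18 to 7.71. The 3 siSRSF1-2 libraries were nearly alike, with a median ratio of highest to lowest of 1.09 over the 32 genes. With alike libraries averaged into single samples, 1 siSRSF1-2 sample stood against 2 blank samples, and 0 of all genes were called; the log2 fold change of FADS2 was then -1.30.

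Upregulation of LINC01134 was also set against the blank libraries. SCD and the decarboxylase gene MVD fell past the fold threshold. Of the 6 regulators INSIG1 fell by less, and the others, SREBF1, SREBF2, SCAP, INSIG2 and STARD4, did not pass the test. The log2 fold change was below 0 for 27 of 32 genes and above 0 for 5, also with own totals, with a median of -0.57 against 0.05 for all genes. Of the 32, 2 were called lower, beside 0.593% of all genes, and 0 higher, beside 0.257% of all genes. Without a minimum fold, 3 fell, beside 0.730% of all genes. All OE-LINC01134 libraries were below all blank libraries in 18 members (13.8% of all genes) and above them in 0 (16.8% of all genes).

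MVD was at 6.73, 11.1 and 6.46 FPKM in OE-LINC01134 replicates 1 to 3, against 20.2 to 21.6 in blank. It was 2.67-fold lower without overlap (log2 fold change -1.42 ± 0.21, adjusted p = 0.0431). SCD was at 41.4, 57.1 and 39.8 FPKM, against 92.3 to 105 in blank, and was 2.13-fold lower (log2 fold change -1.09 ± 0.16, adjusted p = 0.0402). INSIG1 was at 2.48, 3.32 and 3.01 FPKM, below all blank libraries (log2 fold change -0.99 ± 0.16, adjusted p = 0.0486). It did not pass with a pseudocount of 0.01, no filter on low values, eBayes without trend, the replicate block or alike libraries averaged. Nor did it pass without blank replicate 2 or 3 or without OE-LINC01134 replicate 1 or 3. In MVD, SCD and INSIG1 alike, OE-LINC01134 replicate 2 was the library nearest to blank.

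The largest differences that did not pass were in DHCR7 and STARD4. DHCR7 was at 9.98, 17.4 and 10.3 FPKM with LINC01134, below all blank libraries (log2 fold change -1.25 ± 0.23, adjusted p = 0.0553). STARD4 was at 4.91, 7.53 and 4.38 FPKM, below all blank libraries (log2 fold change -1.25 ± 0.23, adjusted p = 0.0585). An antisense transcript listed over DHCR7 had a mean of 12.3 FPKM against 19.99 for the gene. FDFT1 and SQLE, the first enzymes of the squalene branch, had log2 fold changes of -1.14 ± 0.29 and -1.04 ± 0.21.

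Neither desaturase gene of chromosome 11 passed the test with LINC01134. FADS2 was at 7.27, 16.97 and 7.27 FPKM, all below blank, and only replicate 2 came close to the lowest blank value (log2 fold change -1.11 ± 0.34, adjusted p = 0.112). FADS1 was at 12.8, 17.1 and 13.2 FPKM, and its groups overlapped (log2 fold change -0.26 ± 0.14). For FASN the fit gave -1.03 ± 0.26 (adjusted p = 0.0855), and for ACLY, ACACA and ELOVL6 -0.31, -0.27 and -0.42. The fatty acid genes summed to 147 ± 27.7 FPKM.

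ACAT2 was at 8.28, 10.7 and 8.17 FPKM, HMGCS1 at 13.4, 14.6 and 12.2 and PMVK at 17.7, 18.4 and 14.5 FPKM with LINC01134. ACAT2 and HMGCS1 did not overlap with blank, and PMVK did. EBP was at 12.1, 19.3 and 12.02 FPKM and CYP51A1 at 3.47, 2.94 and 2.82 FPKM, both overlapping with blank. SREBF2 was at 23.1, 29.1 and 24.0 FPKM, below all blank libraries (log2 fold change -0.53 ± 0.12, adjusted p = 0.0730). SREBF1 was at 15.7, 20.95 and 15.7 FPKM, SCAP at 18.9, 18.05 and 19.3 FPKM and INSIG2 at 2.98, 4.34 and 3.03 FPKM, and all 3 overlapped with blank. Without OE-LINC01134 replicate 2, 8.78% of all genes were called and 8 members, all lower: DHCR7, FADS2, FDFT1, INSIG1, MVD, SCD, SQLE and STARD4. Without blank replicate 1, 5 members and 5.49% of all genes were called, and without any other single library 0 members and at most 0.0513% of all genes. Over the 6 fits the log2 fold changes ranged from -1.66 to -1.28 for MVD and from -1.26 to -0.997 for SCD.

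**Figure D3:**
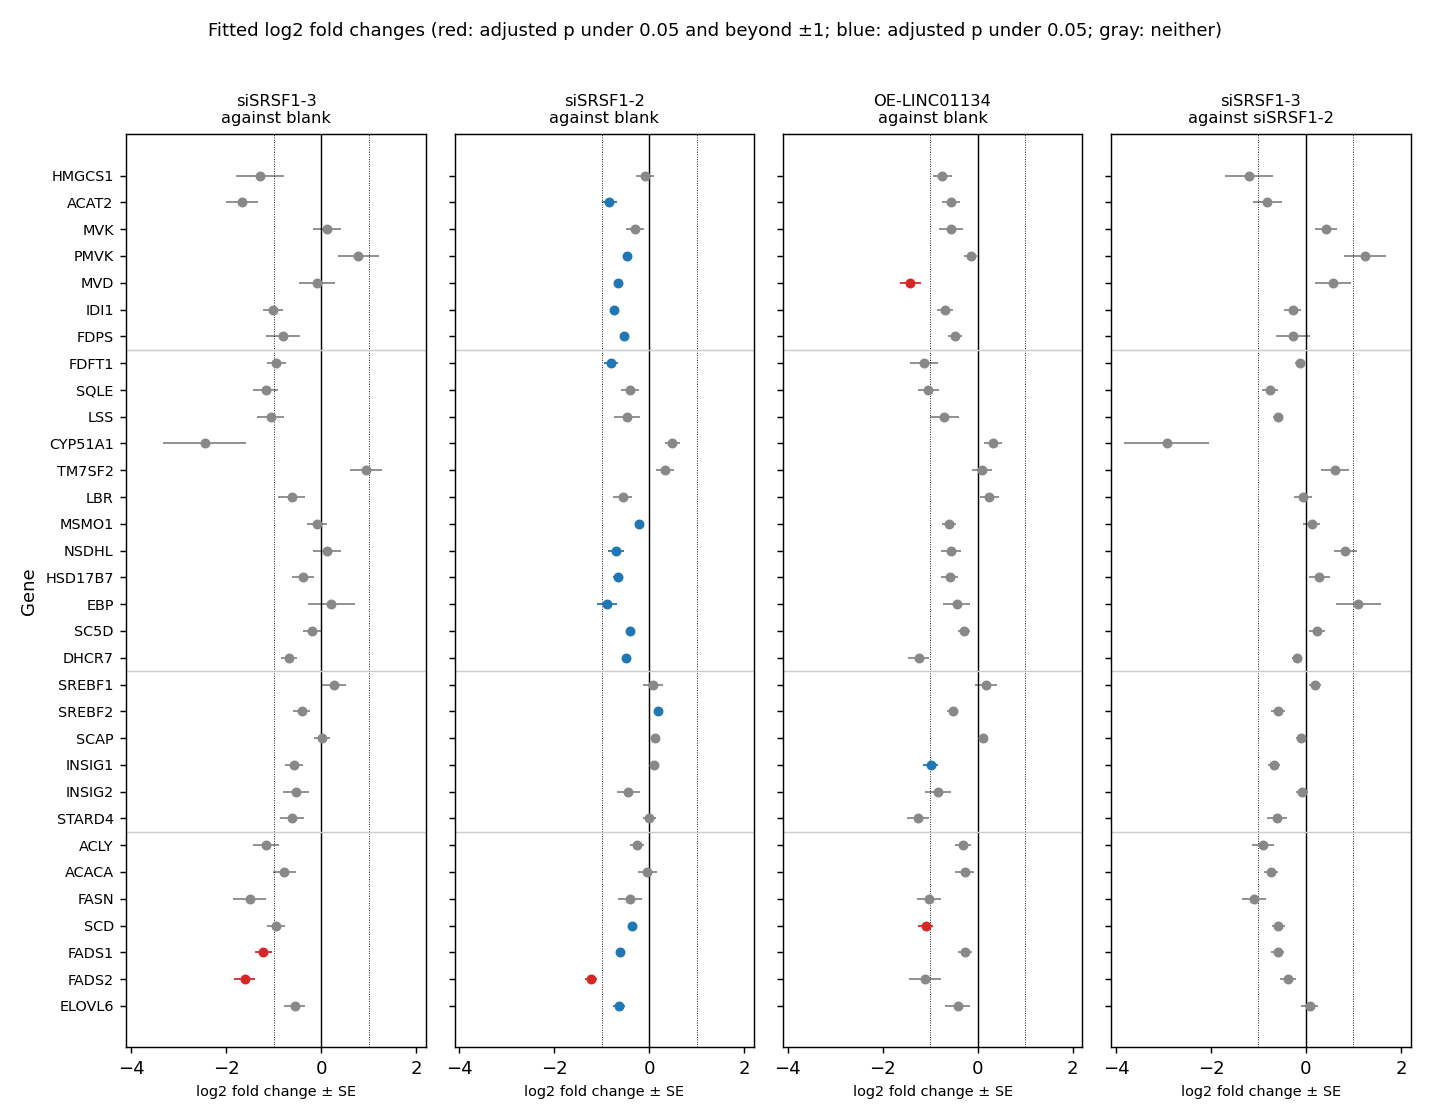
Fitted log2 fold change with its SE for each of the 32 genes (rows) in the 4 comparisons (panels), from limma on log2(FPKM + 0.1); red marks called genes, blue an adjusted p under 0.05 with a fold change within 1, gray neither, and dotted lines mark -1 and 1. FADS1 and FADS2 are red with siSRSF1-3, FADS2 with siSRSF1-2, and MVD and SCD with OE-LINC01134, and no gene is red between the siRNAs.

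To test whether the 2 siRNAs differed, siSRSF1-3 was compared with siSRSF1-2 directly, without the blank libraries. No member was called in either direction, beside 0.0513% of all genes called lower and 0.0342% called higher. The widest gaps were in the cholesterol branch, where CYP51A1 and HMGCS1 had lower and PMVK and EBP higher fitted levels with siSRSF1-3. With a threshold on the unadjusted p and the same fold, 2 members passed in the lower direction (7.42% of all genes), CYP51A1 and FASN, and 1 in the higher (9.01% of all genes), PMVK. The median log2 difference, siSRSF1-3 minus siSRSF1-2, was -0.23 against -0.02 for all genes, with 21 members below 0 and 11 above (26 and 6 with own totals). The 2 siRNAs also differed with gene length. Over all genes the median was 0.20 below 2000 bases, 0.27 from 2000 to 4000, -0.03 from 4000 to 6000 and -0.32 from 6000 on. The members' medians in these bands were 1.03 (PMVK and NSDHL), -0.09, -0.28 and -0.49. The part of length in these gaps was not tested.

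Values for CYP51A1 were 0.0427, 0.263 and 1.79 FPKM with siSRSF1-3 and 3.22, 3.69 and 3.35 with siSRSF1-2 (log2 difference -2.93 ± 0.90, adjusted p = 0.0851). PMVK differed by 1.24 ± 0.44 (adjusted p = 0.0961), HMGCS1 by -1.19 ± 0.50, EBP by 1.10 ± 0.47 and FASN by -1.10 ± 0.25. Every siSRSF1-3 library lay below every siSRSF1-2 library in 16 members (27.6% of all genes), including 6 of the 7 fatty acid genes, and above in 3 (27.0% of all genes), which were PMVK, NSDHL and SREBF1. FADS2, called with either siRNA, differed by -0.38 ± 0.17 (adjusted p = 0.136), and SREBF2, with opposite signs against blank, by -0.59 ± 0.15 (adjusted p = 0.0792). Without siSRSF1-3 replicate 3, 30.6% of all genes were called and 7 of the 32 members: ACLY, CYP51A1, FASN and HMGCS1 lower and EBP, NSDHL and PMVK higher. The median difference was -0.14 without siSRSF1-3 replicate 1 and -0.34 without replicate 2.

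**Figure D4:**
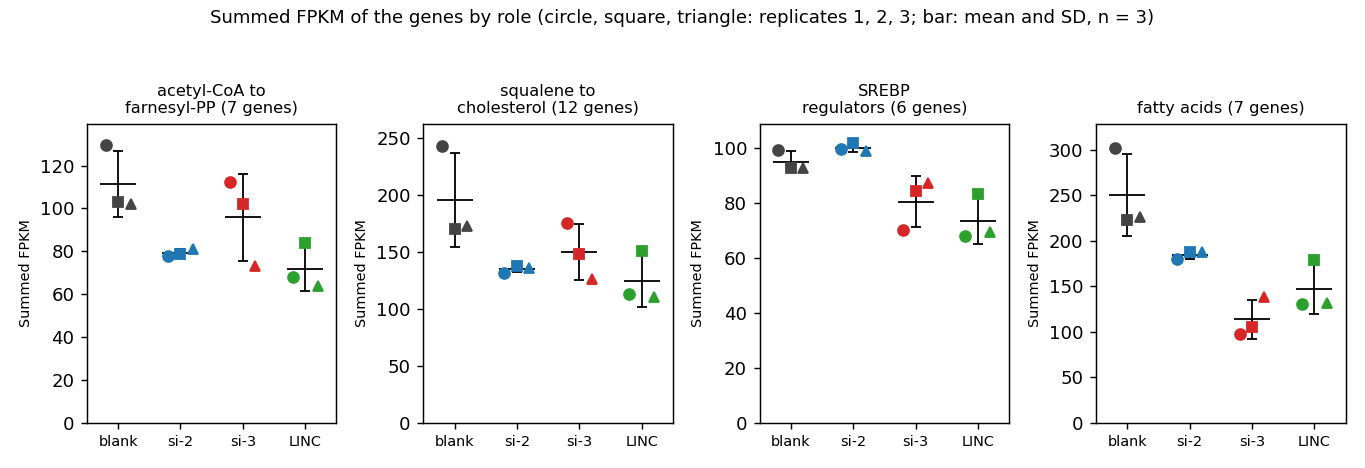
Summed FPKM of the genes of each role in each library (circle, square and triangle for replicates 1, 2 and 3; bars show the mean and SD, n = 3; si-2, si-3 and LINC stand for siSRSF1-2, siSRSF1-3 and OE-LINC01134). The fatty acid genes sum to 250 FPKM in blank and 114 FPKM in siSRSF1-3 cells, and the sum of the regulators in siSRSF1-2 cells, 100.1 FPKM, is close to the blank 94.99 FPKM.

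Summed over all 32 genes, the level was 652 ± 105 FPKM in blank, 499 ± 9.06 with siSRSF1-2, 440 ± 15.5 with siSRSF1-3 and 417 ± 69.3 with OE-LINC01134 (SD, n = 3). The sums of the genes up to farnesyl diphosphate were 111 ± 15.5 FPKM in blank, 79.3 ± 1.63 with siSRSF1-2, 95.8 ± 20.3 with siSRSF1-3 and 72.0 ± 10.7 with OE-LINC01134. Those of the genes that make squalene and take it to cholesterol were 195 ± 41.1, 135 ± 3.02, 150 ± 24.6 and 125 ± 22.7 FPKM in the same order. The regulators summed to 94.99 ± 3.81, 100.1 ± 1.498, 80.5 ± 9.13 and 73.6 ± 8.44 FPKM. ACAT2 overlaps the chaperonin gene TCP1, listed at a mean of 54.9 FPKM on the opposite strand, so some of its reads cannot be assigned with certainty.

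A further list of 52 genes of lipid synthesis, sterol transport and SREBP processing gave 50 genes that could be tested. In siSRSF1-3 cells 1 of them was called, beside 0.929% of all genes called lower. It was LIPA, the lysosomal acid lipase that frees cholesterol from its esters, which fell from 10.1 ± 0.297 to 2.94 ± 0.649 FPKM (log2 fold change -1.76 ± 0.20, adjusted p = 0.0356). In OE-LINC01134 cells LIPA was again the 1 gene called, beside 0.593% of all genes called lower, at 4.93 ± 1.11 FPKM (log2 fold change -1.04 ± 0.17, adjusted p = 0.0486). Without single libraries LIPA kept log2 fold changes of -1.92 to -1.62 with siSRSF1-3 and of -1.21 to -0.94 with OE-LINC01134, and it was called in 1 and 2 of the 6 such fits. Over all 17 alternative fits LIPA was called in 8 with siSRSF1-3 and 6 with OE-LINC01134. In siSRSF1-2 cells 1 gene was called, beside 2.73% of all genes called lower. It was SLC25A1, the mitochondrial citrate carrier, which fell from 30.1 ± 0.747 to 14.3 ± 0.168 FPKM (log2 fold change -1.07 ± 0.05, adjusted p = 0.000698). Without a minimum fold, 9 of the 50 rose with siSRSF1-2, beside 14.0% of all genes, and 10 fell, beside 12.8%. The medians of this list were -0.18 with siSRSF1-3, -0.05 with siSRSF1-2 and -0.16 with OE-LINC01134, nearer to those of all genes than the medians of the 32 were, a difference that was not tested.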

How the data were processed

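RNA of 12 U2OS libraries was measured by RNA-Seq. The authors deposited FPKM per gene with gene lengths and coordinates. The labels name the organism as mouse and a mouse build, but the identifiers are human Ensembl genes, so the samples were treated as human, and the aligner and counter are not given in the sources used here. The labels name a SMARTER library kit and the supplementary methods another kit. FPKM times length gave whole reads (100% of values within 0.01), used for depth, replicate checks and a voom fit.

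The package limma 3.58.1 (R 4.3.3) was run on log2(FPKM + 0.1) with eBayes and a trend, using the 3 + 3 libraries of each comparison and the 17538 genes whose FPKM averaged 0.5 or more, with Benjamini-Hochberg adjustment over all of them. Fold changes are on this scale and understate changes of low genes. The fit was tested on simulated data. Values per library are given for the 6 regulators, for called members and for the 3 largest fold changes per comparison, plus others named for context. No sequence is shown, since no human reference was used here.

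Members and lists were chosen with earlier results of these data known. Alternatives were other pseudocounts and filters, scalings, eBayes without trend, one fit over 4 groups, a replicate block, no minimum fold, the unadjusted p and the omission of each library. Scaling to own totals and the voom fit were among them, and averaging alike libraries was added after seeing the data.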

Additional observations from a re-analysis of the deposited data

How the results depend on the processing

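With siSRSF1-3 against blank, 0 members were called instead of 2 with a pseudocount of 0.01, no filter on low values or either rescaling. The count was also 0 with eBayes without trend, where 0.872% of all genes were called, or alike libraries averaged. It was 10 with one fit over 4 groups (13.8% of all genes) and 5 with voom (3.35%). With the unadjusted p it was 10, all lower, beside 7.24% of all genes in that direction. Leaving out single libraries gave 0 to 11 members (0 to 23.9% of all genes), and the median ranged from -0.72 to -0.58. Scaling to own totals gave a median of -0.88 and to the same sum -1.06, where the median of all genes was -0.26 and -0.44. With siSRSF1-2, the count of 1 became 17 without a minimum fold, 16 lower (12.8% of all genes) and 1 higher (14.0%). It was 1 to 2 without single libraries, where 3.04 to 6.77% of all genes were called. The median was -0.39 and -0.30 under the rescalings, -0.51 with alike libraries averaged and -0.52 to -0.32 without single libraries. With OE-LINC01134, the count of 2 became 0 without filter, without trend or with alike libraries averaged, 8 with one fit over 4 groups, 6 with voom, 8 with the unadjusted p and 0 to 8 without single libraries. Its median of -0.57 became -0.57 and -0.48 under the rescalings. It ranged from -0.74 without OE-LINC01134 replicate 2 to -0.40 without blank replicate 1. Between the siRNAs, the count of 0 became 4 with one fit over 4 groups, which called 15.6% of all genes. With the unadjusted p it was 3, of which 2 were lower (7.42% of all genes) and 1 higher (9.01%). Without single libraries it was 0 to 7, with 0 to 30.6% of all genes called. The median became -0.53 and -0.80 under the rescalings and -0.34 to -0.14 without single libraries. The decreases of any size with siSRSF1-2, 16 in all, became 3 with one fit over 4 groups (2.01% of all genes) and 11 without filter (4.06%). They became 10 with the replicate block (7.01%) and 6 to 20 without single libraries (5.27 to 24.7%). Besides the rescalings, the cause of these shifts was not tested.

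The log2 fold change of SRSF1 with siSRSF1-3, -2.09, passed the threshold with a pseudocount of 1 (-1.92), one fit over 4 groups (-2.09) and voom (-2.08), and ranged from -2.33 to -1.72 without single libraries, passing without siSRSF1-3 replicate 3. With siSRSF1-2 it was -1.86 with alike libraries averaged, a fit of 1 against 2 samples in which no gene passed.

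A fit with the replicate block called 0 members with siSRSF1-3, 1 with siSRSF1-2, 0 with OE-LINC01134 and 0 between the siRNAs. The shares of all genes called were 0%, 3.88%, 0.0228% and 0% in the same order. Deviations of same-numbered libraries correlated between -0.0815 and 0.0420, and those of differently numbered ones between -0.0734 and 0.0988. No pairing by number was visible, but this check cannot exclude it.

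Of 1224 values of named genes under the alternatives, 1098 kept their direction and side of the threshold, 63 dropped below it, 37 newly passed it and 26, none of them past the threshold, changed sign. With siSRSF1-3 against blank, own totals gave -0.050 for EBP and -0.24 for SCAP, the same sum -0.24 for EBP, -0.43 for SCAP and -0.18 for SREBF1, and alike libraries averaged -0.017 for SCAP. With siSRSF1-2, own totals gave 0.038 for STARD4, the same sum 0.13 for STARD4 and 0.036 for HMGCS1, and alike libraries averaged 0.066 for STARD4 and -0.044 for SREBF1. Between the siRNAs, own totals gave -0.11 for SREBF1, and the same sum -0.38 for SREBF1 and -0.012 for MVD. Without single libraries, values with siSRSF1-3 ranged from -0.22 to 0.74 for EBP, -0.46 to 0.33 for MVD and -0.026 to 0.099 for SCAP, and with siSRSF1-2 from -0.20 to 0.12 for HMGCS1, -0.079 to 0.31 for SREBF1 and -0.15 to 0.094 for STARD4. Depth limits CYP51A1, which had 3 reads in siSRSF1-3 replicate 1.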
